A study of Mus musculus with 18 samples.

Results

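The cytosolic ribosomal protein genes were taken as every row of the deposited kidney expression table whose symbol begins with Rps or Rpl and goes on with a subunit number, a for Rpsa, or p0, p1 or p2 for the stalk proteins. A closing a, x or l after the number was allowed. The rule found 81 of the 19545 rows, 31 of the small subunit (Rps) and 50 of the large (Rpl). No measured value entered the rule. Genes such as Fau, Rps3a1 and Rpl36al also encode ribosomal proteins but fall outside the pattern, and they are given beside the members.

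The table holds kidney RNA of ICR mice aged 10 weeks, in 18 libraries that form 6 groups of 3. No treatment is named for the control group. Mice of the AOS group received AOS at 10 mg/kg, an abbreviation that no label resolves. HS stands for a high fat diet with STZ, that is streptozotocin, which kills insulin-producing cells of the pancreas. HS_AOS had the same diet and STZ together with AOS at 10 mg/kg. HS_AOS_FMT and HS_control_FMT had the diet and STZ with a faecal microbiota transplantation (FMT), whose label names AOS at 10 mg/kg in the first and control in the second. The series asks how the transfer affects a kidney damaged by the diet and STZ. No label says whether the samples of 1 group were taken from different mice. The p-values therefore cover the spread among these libraries alone, and that spread may be technical.

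Each cytosolic ribosome holds 1 copy of nearly every one of these proteins around its ribosomal RNA, and the acidic stalk proteins Rplp1 and Rplp2 are the exception with more than a single copy. The messenger RNAs are short and abundant, and most begin with a C followed by a run of C and T, the 5′ terminal oligopyrimidine (TOP) tract, through which their translation follows the kinase complex mTORC1. Cells therefore make these proteins in step, and a tissue's ribosomal protein RNA is often read as a sign of its capacity to make protein.

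The start of these genes is shown first because the tract sits there. RefSeq windows of GRCm38 matched 61 of the 81 members. A C followed by at least 4 C or T began within 10 bases of the start in 36 of them (59.0%), against 30.8% of the windows of 27025 genes. The tract began exactly at the start in 13 of the 61 (21.3%), against 2.49% of all windows. The letters CCGGAAG, or CTTCCGG for the other strand, a core of the sites bound by ETS factors, lay in 24 of the 61 windows (39.3%), against 9.12% of all. TATAAA, or TTTATA for the other strand, lay in 6 (9.84%), against 14.2% of all. These are matches of letters in a window and not measured sites. The 5 windows below run from 60 bases before to 20 bases after the annotated start, 5′ to 3′, and were picked to show tracts and the CCGGAAG core. Capitals mark runs of at least 5 C or T that begin within 15 bases of the start, and CCGGAAG. They lie at chr11:114668520-114668599 on the plus strand (Rpl38), chr7:4792905-4792984 on the plus strand (Rpl28), chr14:18270967-18271046 on the minus strand (Rpl15), chr17:27635225-27635304 on the minus strand (Rps10) and chr11:68901506-68901585 on the plus strand (Rpl26).
Rpl38: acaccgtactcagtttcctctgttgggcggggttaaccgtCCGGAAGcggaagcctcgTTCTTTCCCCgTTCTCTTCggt
Rpl28: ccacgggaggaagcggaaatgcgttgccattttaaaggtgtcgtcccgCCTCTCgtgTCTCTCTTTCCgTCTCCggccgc
Rpl15: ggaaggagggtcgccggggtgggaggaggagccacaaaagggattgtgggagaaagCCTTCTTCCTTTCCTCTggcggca
Rps10: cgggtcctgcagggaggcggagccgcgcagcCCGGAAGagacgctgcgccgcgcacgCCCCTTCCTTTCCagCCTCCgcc
Rpl26: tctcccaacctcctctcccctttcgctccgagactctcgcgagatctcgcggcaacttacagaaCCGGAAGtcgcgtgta

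A second set of sequences bears on which rows can be trusted. Rpl29 and Rpl34, proteins of the large subunit, and Rps6, the small subunit protein phosphorylated by S6 kinase, were listed at means of only 2.22, 5.81 and 13.9 FPKM over the 18 libraries. The values were read as FPKM, fragments scaled to transcript length and library size. Rows of near-identical copies were high: Gm8210, a processed pseudogene of Rpl29 at chr1:43189156-43189638, had a mean of 651 FPKM and Rpl34-ps1, a processed pseudogene of Rpl34 at chr6:71124610-71124963, a mean of 616. A further row, LOC105244208, which the RefSeq table pairs with an Rps6 pseudogene, lay between 577 and 929 FPKM. Between the coding sequence of Rpl29 and Gm8210, 3 of 483 bases differ (C72A, C300T and T423C, member base first, counted from 1 at the A of the start codon), and the longest identical run is 227 bases. Between Rpl34 and Rpl34-ps1, 2 of 354 bases differ (T132C and C318G) with an identical run of 185 bases. The stretches below, from GENCODE M21 transcripts of GRCm38, cover bases 22 to 121 of the Rpl29 coding sequence and 82 to 181 of Rpl34, and show how little tells each pair apart. The base that differs is in capitals.
Rpl29: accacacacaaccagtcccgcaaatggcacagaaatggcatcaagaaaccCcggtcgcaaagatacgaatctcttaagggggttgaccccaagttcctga
Gm8210: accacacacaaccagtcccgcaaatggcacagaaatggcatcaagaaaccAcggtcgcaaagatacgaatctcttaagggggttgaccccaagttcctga
Rpl34: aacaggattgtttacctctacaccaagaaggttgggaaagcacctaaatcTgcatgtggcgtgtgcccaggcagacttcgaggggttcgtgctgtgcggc
Rpl34-ps1: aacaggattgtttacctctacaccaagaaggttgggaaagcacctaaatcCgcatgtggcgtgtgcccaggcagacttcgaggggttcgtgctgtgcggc
How reads that match both of a pair were assigned is not given in the sources used here, so the rows of Rpl29, Rpl34 and Rps6 are uncertain. The other copies found by the same search were smaller beside their member: BC004004 at 163 FPKM against 216 for Rpl21 was the nearest.

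The members were among the most abundant transcripts of the kidney. Means over the 18 libraries were at least 100 FPKM for 71 of the 81 members, against 4.80% of all rows, and at least 1000 FPKM for 5. The median member was at 418 FPKM and the median row of the table at 2.88. The 5 highest members were Rpl41, the smallest protein of the ribosome, at 1308 FPKM, Rps2 of the small subunit at 1265, Rps27 at 1069, Rpl10, which completes the large subunit late in its assembly, at 1060, and Rpl28 at 1040. From Rpl41 down to Rps3 at 136 FPKM these 71 members spanned 9.62-fold. FPKM divides by transcript length, so these are levels per length, and the length used for each row is not given in the sources used here. Rps20 at 32.1 and Rps15a at 19.1 FPKM were low members whose longest GENCODE transcripts, 3706 and 5179 bases, are far longer than their coding sequences of 357 and 390 bases. Other members have this trait too, with 2989 and 564 bases for Rpl18, 2690 and 576 for Rpl9 and 2051 and 384 for Rpl22. Only 4 members in all lay between 10 and 100 FPKM. The part of transcript length in these levels was not tested.

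The paralogs were at or near 0 with 1 exception. Rps27l, a copy of Rps27 known as a p53 target, was at 256 FPKM over all libraries and between 188 and 354 in each. Rpl3l, the form of Rpl3 known from heart and skeletal muscle, had a mean of 1.23 FPKM and lay between 0.59 and 2.34. Rpl39l and Rpl10l, known from the testis, were each listed at 0 in 15 of the 18 libraries. Rpl10l was above 0 in the 3 control libraries alone, at 0.18, 0.08 and 0.09 FPKM. The germ cell transcripts Prm1, Prm2, Tnp1 and Tnp2 were also above 0 in the controls, summed to between 26.1 and 37.1 FPKM, and summed to at most 0.47 in every other library. Whether the Rpl10l values come with them was not tested. Rpl32l, a processed pseudogene on chromosome 10, had a mean of 0.28 FPKM and Rpl29, Rpl3l, Rpl32l, Rpl39l and Rpl10l were the 5 lowest members.

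Some libraries stood apart before any comparison of members. Control 3 held Kap, a proximal tubule transcript under androgen control, at 2.48% of its summed FPKM, against 10.3% to 21.6% elsewhere. The adrenal markers Cyp11b1, Cyp11a1, Star, Chga and Th, all 5 in the table, summed to 357 FPKM in control 3. They summed to 239 in HS 3, to 184 in HS_AOS_FMT 2, to 32.3 in HS_AOS_FMT 3, and to at most 3.94 in the rest. Erythroid markers summed to between 2611 and 15529 FPKM, with HS 3 the highest and control 3 the lowest. The markers of proximal tubule and thick ascending limb were present in every library but at unequal levels. The proximal tubule markers, with Kap among them, summed to 18175 FPKM in control 3 and to at least 69641 elsewhere. Those of the thick ascending limb summed to between 427 (HS_AOS 2) and 1472 (control 2). In bulk tissue, fewer cells of a type and less RNA per cell cannot be told apart.

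The share of the members in the summed FPKM of a library is the simplest reading of the family as a whole. It was 4.89%, 4.72% and 8.23% in the controls and 5.03%, 4.98% and 4.74% in AOS. In HS it was 5.87%, 5.94% and 6.02%. It was 6.01%, 5.31% and 4.43% in HS_AOS, 5.28%, 5.01% and 4.81% in HS_AOS_FMT, and 5.57%, 5.91% and 4.84% in HS_control_FMT. The HS libraries lay close together and above all libraries of AOS and HS_AOS_FMT and above control 1 and control 2, while control 3 was the highest of all. The highest HS_AOS and HS_control_FMT libraries reached the HS range, while HS_AOS 3 was the lowest of all 18.

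**Figure D1:**
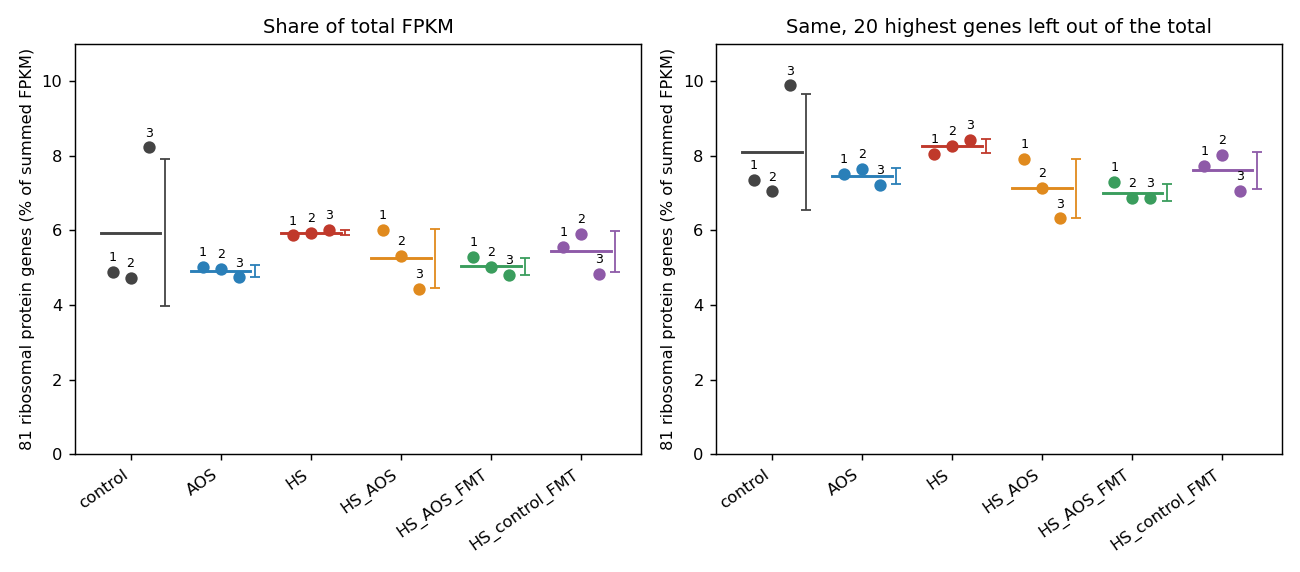
Share of the 81 ribosomal protein genes in each library's summed FPKM, in percent, with all rows in the total (left) and with the 20 other rows of highest mean FPKM left out of the total (right). Points are libraries with their replicate number, lines are group means and bars are 1 SD of 3 libraries. Control 3 stands at 8.23% on the left and 9.89% on the right, above every other library, and the 3 HS points lie between 5.87% and 6.02% on the left.

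Group means of the share were 5.94% ± 0.0760 (SD, n = 3) in HS and 5.94% ± 1.98 (SD, n = 3) in control, a ratio of 1.00. Without control 3 the ratio of HS to control was 0.31 on the log2 scale. HS_AOS had a share of 5.25% ± 0.793 (SD, n = 3), which is 0.884 of the HS share, and HS_AOS_FMT a share of 5.03% ± 0.236 (SD, n = 3), which is 0.847 of it. HS_control_FMT, at 5.44% ± 0.546 (SD, n = 3), stood at 0.915 of HS. HS_AOS_FMT was at 0.926 of HS_control_FMT. AOS, at 4.92% ± 0.154 (SD, n = 3), was at 0.827 of control, and at 1.02 of it when control 3 was left out. No test was run on shares, since they sum over a chosen list.

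The denominator moved too. The 20 highest rows outside the family took between 16.8% (control 3) and 34.9% (AOS 2) of a library, and with them out of the total the share was between 8.06% and 8.43% in HS, between 6.32% and 7.93% in HS_AOS and between 6.88% and 7.29% in HS_AOS_FMT. On that scale the HS libraries lay above all libraries of AOS, HS_AOS, HS_AOS_FMT and HS_control_FMT, which end at 7.65%, 7.93%, 7.29% and 8.02%, and still below control 3. The large subunit genes took 1.46 to 1.59 times the share of the small subunit genes in every library, with HS_AOS 3 at 1.59 as the highest.

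**Figure D2:**
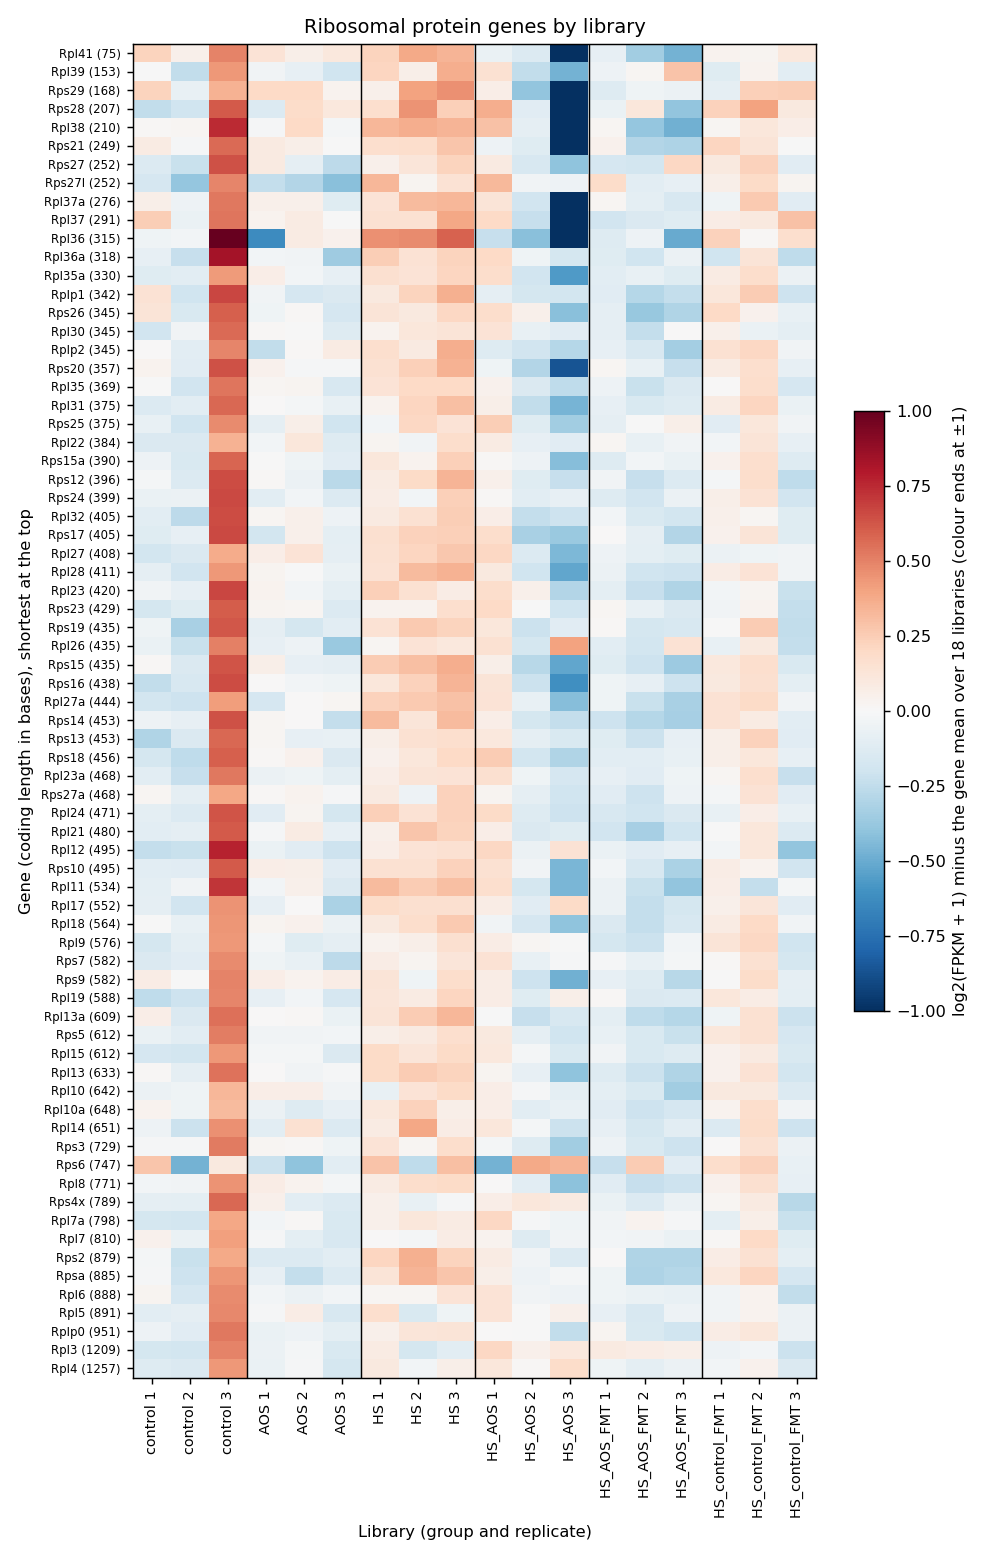
Each row is 1 of 72 members with a mean of at least 10 FPKM, of 75 at that level, ordered by coding length in bases from the shortest at the top, and each column is a library. Colour is log2(FPKM + 1) minus the gene's mean over the 18 libraries. Control 3 is red nearly throughout and holds the highest value of 73 of the 75 members, and HS_AOS 3 is dark blue in several of the short genes at the top.

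The members moved together in several libraries. Over the 75 members with a mean of at least 10 FPKM, the mean log2 deviation of a library from the gene means was 0.53 in control 3, and all 75 members were above their own mean there. It was 0.13, 0.15 and 0.22 in the HS libraries, -0.07, -0.16 and -0.17 in HS_AOS_FMT, and 0.09, -0.11 and -0.33 in HS_AOS. Around these library means the members spread with an SD of 0.07 to 0.15 on the log2 scale in 17 libraries. In HS_AOS 3 the SD was 0.42. That library held the lowest value of 33 of the 75 members.

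In HS_AOS 3 many short members were low: 13 of the 19 members with the shortest coding sequences lay below the family mean of the library, against 3 of the 19 with the longest. Relative to the family mean of the library, Rps28 was at -1.48, Rps29 at -1.34, Rpl38 and Rpl37 at -1.18, Rpl37a at -0.79 and Rpl41 at -0.74, and all of these have coding sequences of 291 bases or fewer. Other short members were not low, with Rps27l (252 bases) at 0.28, Rpl30 (345 bases) at 0.22, Rpl36a (318 bases) at 0.15 and Rplp1 (342 bases) at 0.14. At the other end Rpl26, with 435 bases, was at 0.73, Rps6 at 0.67, Rpl17 at 0.52 and Rpl4, with 1257 bases the longest, at 0.51. The median was -0.24 in the 19 members with the shortest coding sequences (75 to 369 bases) and 0.28 in the 19 with the longest (612 to 1257 bases). As a description over the 75 members of 1 library, Spearman's rho between deviation and coding length was 0.61. It was 0.48 in HS_AOS 2, -0.12 in HS_AOS 1 and between -0.54 (HS 3) and 0.07 (HS_AOS_FMT 3) in the other libraries. Members share the library and short genes share other features, so these correlations say nothing of a cause, which was not tested.

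**Figure D3:**
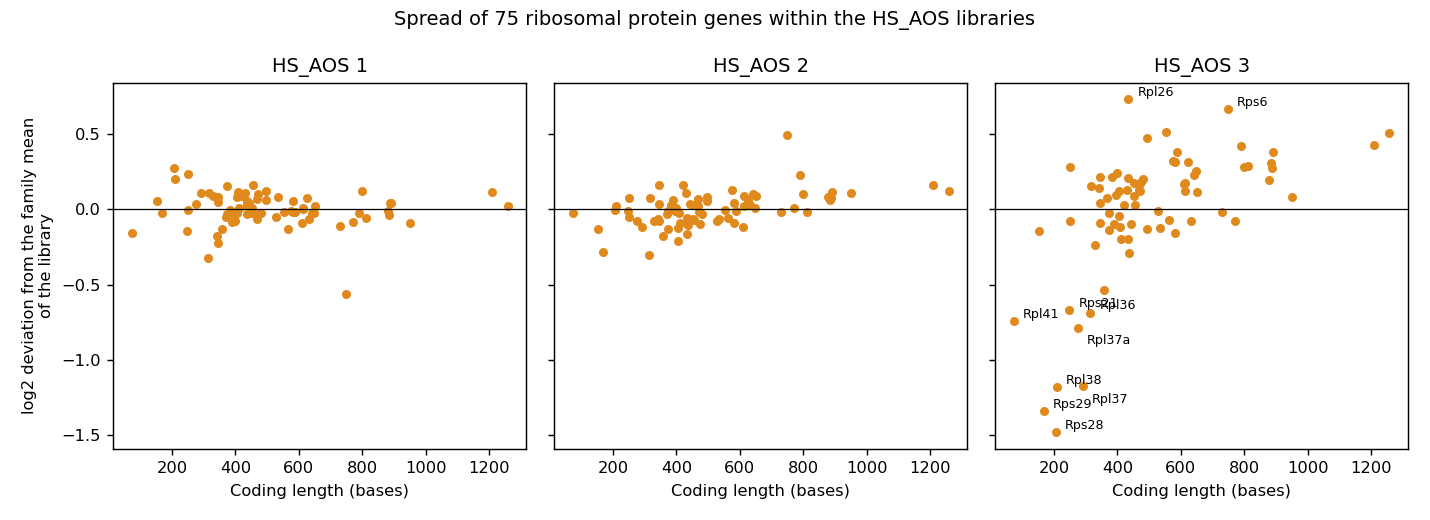
Deviation of each of the 75 members from the family mean of its library (log2) against coding length in bases, for HS_AOS 1, 2 and 3. In HS_AOS 3 the short genes Rps28, Rps29, Rpl38 and Rpl37 lie between -1.48 and -1.18, and the same genes lie between -0.28 and 0.28 in HS_AOS 1 and HS_AOS 2.

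Tests gene by gene used limma on log2(FPKM + 1) over all 18 libraries, with p-values adjusted over the 12385 genes that reached 1 FPKM in at least 3 libraries. Of the members 78 passed this filter and Rpl10l, Rpl39l and Rpl32l did not. No member passed an adjusted p of 0.05 in any of the 6 comparisons. What follows gives the values, since in several comparisons nearly every tested member lay on the same side of 0.

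The first comparison asks what the diet and STZ did to the kidney. HS against control called 0 of the 78 tested members, with 0.0646% of all tested genes called, and no member had an unadjusted p under 0.05, against 6.63% of all genes. The median log2 change was 0.05 (all tested genes 0.00), and 57 members were higher and 21 lower, where 49.5% of all genes were lower. Among the largest values were those of Rpl27a (0.25 ± 0.16 SE) and Rps28 (0.23 ± 0.39), and the smallest those of Rpl3l (-0.16 ± 0.25), Rps4x (-0.14 ± 0.14) and Rpl3 (-0.11 ± 0.14). Rpl27a, of the large subunit, was at 478, 489 and 499 FPKM in HS and at 360, 353 and 547 in control. The HS values lay above control 1 and control 2 and below control 3, and no member's 3 HS values cleared all 3 controls, against 4.59% of all genes that did so upward and 3.95% downward. With array weights, which give control 3 little weight, 3 members were called higher, Rpl28 and Rpl27a among them, against 0.525% of all genes.

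Control 3 decided these values. Without it 76 of the 78 members were higher in HS, the median log2 change was 0.27 (all genes 0.08), and 41 members had an unadjusted p under 0.05, against 13.6% of all genes. None passed after adjustment, and the smallest adjusted p was that of Rpl19, a large subunit protein (log2 0.37, adjusted p = 0.129). Without control 1 or control 2 the median was -0.04 or -0.07. Control 3 is also the library with the highest adrenal marker sum and the lowest Kap level. The part of these in its ribosomal protein level was not tested.

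HS_AOS against HS asks what AOS did in the treated kidney, and it gave the widest range of member changes. It called 0 of the 78 tested members, while 2.30% of all tested genes were called. Of the members 73 were lower in HS_AOS, against 49.1% of all genes, with a median log2 change of -0.26 (all genes 0.01), and 27 of the 78 had an unadjusted p under 0.05, against 20.3% of all genes. Values of 30 members did not overlap and were lower, against 11.1% of all genes, and those of Rps4x did not overlap and were higher, against 13.6%. Several marker lists were lower here as well: all 5 erythroid markers, with a median log2 change of -1.25, and all 5 adrenal markers, with -1.79. All 3 fat markers (median -1.19) and all 3 thick ascending limb markers (median -0.61) were lower too. The high adrenal and fat sums of HS lay in HS 3. In HS 1, 2 and 3 the adrenal markers summed to 1.36, 1.22 and 239 FPKM and the fat markers to 68.9, 4.30 and 507. Of the 5 proximal tubule markers 2 were lower, with a median of 0.11. None of these markers was called. Their part in the members' values was not tested.

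Rpl36, a large subunit protein encoded at chr17:56613416-56614243 on the plus strand, came closest to the threshold. It was at 388, 393 and 425 FPKM in HS and at 240, 211 and 139 in HS_AOS. No HS_AOS library reached an HS library, and all 3 lay below the controls at 275, 278 and 570 as well. The log2 difference was -1.06 ± 0.27 (SE), with limma's adjusted p = 0.0505. With a pseudocount of 0.1 in place of 1 it was called (adjusted p = 0.0492), and also when control 3 was left out (adjusted p = 0.0148). With the trend of each library over GC content and transcript length removed, its log2 difference was -0.48 (adjusted p = 0.275).

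Rpl41 was at 1486, 1658 and 1612 FPKM in HS and at 1215, 1160 and 606 in HS_AOS (log2 -0.74 ± 0.20 SE, adjusted p = 0.0638). All HS_AOS values were lower, with HS_AOS 3 far below the other two. Rps20, a small subunit protein at the head of the subunit, was at 34.9, 37.3 and 40.2 FPKM in HS and at 30.5, 25.5 and 16.8 in HS_AOS (log2 -0.64 ± 0.19, adjusted p = 0.0817). The groups did not overlap.

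Rps29, a small zinc-binding protein of the small subunit, was at 339, 434 and 450 FPKM in HS and at 344, 249 and 102 in HS_AOS (log2 -0.97 ± 0.30 SE, adjusted p = 0.0920). The groups overlapped, and HS_AOS 3 was the lowest of all 18 libraries. Rps28, another short protein of the small subunit, showed the same order with 438, 532 and 460 FPKM in HS and 503, 360 and 111 in HS_AOS (log2 -0.80 ± 0.39, adjusted p = 0.267). Rpl38, at 1107, 1133 and 1117 FPKM in HS, was at 1080, 829 and 309 in HS_AOS (adjusted p = 0.20). For all 3 genes HS_AOS 1 was close to HS and HS_AOS 3 was far below it.

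At the other end, Rpl3, which reaches from the surface of the large subunit to its catalytic centre, was at 259, 217 and 228 FPKM in HS and at 284, 254 and 264 in HS_AOS (log2 0.19 ± 0.14 SE, adjusted p = 0.481). Rps4x, the X-linked small subunit protein, was at 412, 378 and 393 FPKM in HS and at 415, 430 and 423 in HS_AOS (log2 0.10 ± 0.14, adjusted p = 0.738). Rpl5, which carries the 5S ribosomal RNA together with Rpl11, had a log2 value of 0.07 ± 0.13 (adjusted p = 0.802). These 3 have coding sequences of 1209, 789 and 891 bases. In 4 bins of coding length the median log2 change ran -0.41, -0.29, -0.22 and -0.13 from the shortest to the longest members.

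With the mean of the tested members subtracted from each library, 7 members were called in HS_AOS against HS, where 19.8% of all tested genes were called on that scale. Rpl3 (log2 0.47), Rps4x (0.38), Rpl5 (0.35) and Rpl4 (0.34) rose relative to the family and Rpl36 (-0.78), Rpl41 (-0.46) and Rps20 (-0.36) fell. The subtraction moved the median of all genes from 0.01 to 0.29, so these values are relative to the family mean and are not changes in level.

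**Figure D4:**
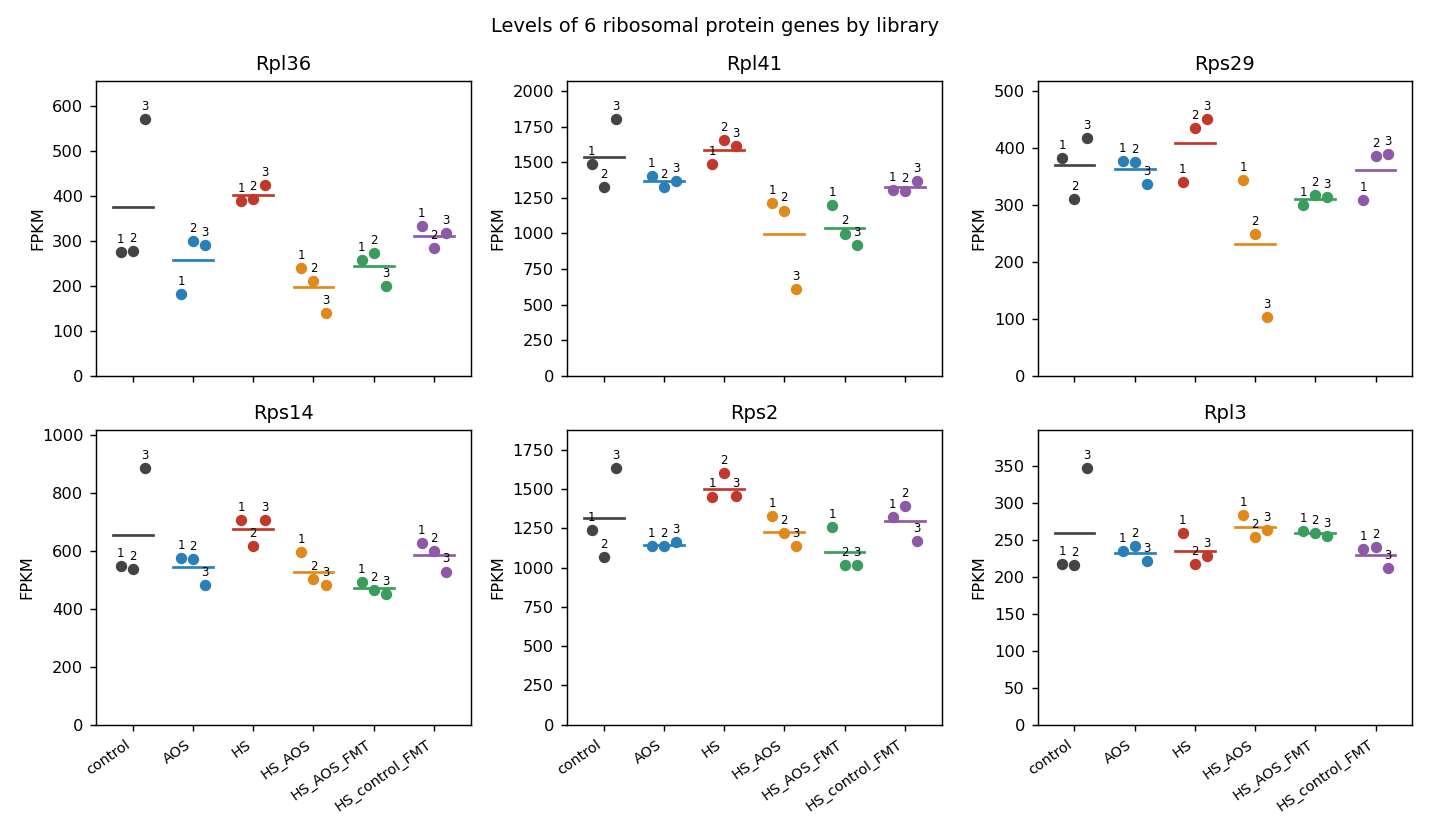
FPKM of 6 members in every library, with replicate numbers and group means as lines. For Rpl36 and Rpl41 the 3 HS_AOS values lie below the 3 HS values, for Rps29 HS_AOS 3 alone is near 100, for Rps14 and Rps2 the 3 HS_AOS_FMT values lie below HS, and for Rpl3 HS and HS_AOS overlap.

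HS_AOS 3 carried part of this comparison. Without it the member median was -0.17, 72 members were still lower, 9 had an unadjusted p under 0.05, against 14.3% of all genes, and none was called. Without HS_AOS 1 the median was -0.35 and 12 members were called lower, against 3.21% of all genes. With control 3 left out of the fit, which changes the estimate of the spread but not these values, 12 members were called lower, against 3.19% of all genes, among them Rpl36, Rps15, Rps20, Rpl18, Rpl28, Rplp2, Rpl41, Rpl13a, Rps14, Rpl13 and Rpl31. Rpl28, Rpl36, Rpl41, Rps15 and Rps20 were the 5 called in both fits. With the GC and length trend removed the member median was -0.04, with 52 members lower and none called. That fit called few genes of any kind, 13 higher and 4 lower of 12254. With array weights, 49 members were called lower, against 16.5% of all genes. These weights were 0.366, 5.80 and 0.407 for HS_AOS 1, 2 and 3, so that count rests mostly on HS_AOS 2.

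HS_AOS_FMT against HS asks what the transfer labelled AOS did, and it uses the same 3 HS libraries. It called 0 of the 78 tested members, where 0.977% of all tested genes were called. The median log2 change was -0.30 (all genes 0.00), 77 of 78 members were lower, against 49.4% of all genes, and 24 had an unadjusted p under 0.05, against 18.1% of all genes. The values of 65 members did not overlap and were lower, against 13.7% of all genes. In the same 4 bins the medians were -0.38, -0.30, -0.29 and -0.25. All 5 erythroid markers were lower, with a median of -1.57 and none called, and 1 of the 5 adrenal markers was lower, with a median of 1.03. With control 3 left out of the fit 1 erythroid marker was called lower. Their part in the members' values was not tested.

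Rps2, which lines the entry of the messenger RNA, was at 1454, 1601 and 1459 FPKM in HS and at 1258, 1017 and 1017 in HS_AOS_FMT (log2 -0.46 ± 0.13 SE, adjusted p = 0.0941). Rps14, of the small subunit platform, was at 707, 619 and 707 FPKM in HS and at 493, 467 and 452 in HS_AOS_FMT (log2 -0.52 ± 0.16, adjusted p = 0.105). Neither gene overlapped between the groups.

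Rpsa, the small subunit protein also known as a laminin receptor, was at 516, 597 and 570 FPKM in HS and at 457, 381 and 386 in HS_AOS_FMT (log2 -0.46 ± 0.14 SE, adjusted p = 0.108). The largest differences were those of Rpl36 (-0.73 ± 0.27), Rpl38 (-0.63 ± 0.33) and Rpl41 (-0.62 ± 0.20), whose errors are larger, with adjusted p of 0.167, 0.337 and 0.13. Rpl3 was the member with a higher value (log2 0.14 ± 0.14, adjusted p = 0.634), and Rpl29 and Rpl7 were nearest to 0 among the rest (-0.02 ± 0.18 and -0.06 ± 0.11). The row of Rpl29 is uncertain because of its near-identical copy. The HS_AOS_FMT values of Rpl3, 261, 259 and 256 FPKM, lay close to the highest of the 3 HS values.

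With control 3 left out of the fit, 16 members were called lower, against 2.54% of all genes, among them Rps14, Rpl21, Rps2, Rpl13a, Rpsa, Rpl13, Rps15, Rpl24, Rpl10a, Rpl18, Rpl27a, Rpl11, Rplp2 and Rplp1. With HS and HS_AOS_FMT fitted alone, Rps14, Rps15 and Rpl13 were called, against 0.412% of all genes called lower. With the family mean subtracted Rpl3 rose relative to the family (log2 0.43), where 18.5% of all genes were called. With the GC and length trend removed the median was -0.09 and with quantile normalization it was -0.17, and none was called under either. Of all genes, 8 were called higher and 5 lower of 12254 with the trend removed. With quantile normalization 100 were called higher and 76 lower of 12385. Array weights called 38 members lower, against 6.79% of all genes.

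The stalk proteins, which recruit the elongation factors, show both comparisons side by side. Rplp1 was at 745, 810 and 888 FPKM in HS, at 653, 616 and 610 in HS_AOS and at 641, 569 and 587 in HS_AOS_FMT. Rplp2 was at 482, 456 and 552 FPKM in HS, at 391, 375 and 352 in HS_AOS and at 405, 383 and 339 in HS_AOS_FMT. Rplp0, which anchors them, was at 562, 591 and 594 FPKM in HS, at 543, 541 and 457 in HS_AOS and at 554, 489 and 472 in HS_AOS_FMT. All 3 were lower than HS in each library of both groups, with log2 values of -0.37, -0.41 and -0.18 in HS_AOS and -0.44, -0.40 and -0.21 in HS_AOS_FMT, in the order given. None passed the test, and the smallest adjusted p among them was 0.12, for Rplp2 in HS_AOS.

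**Figure D5:**
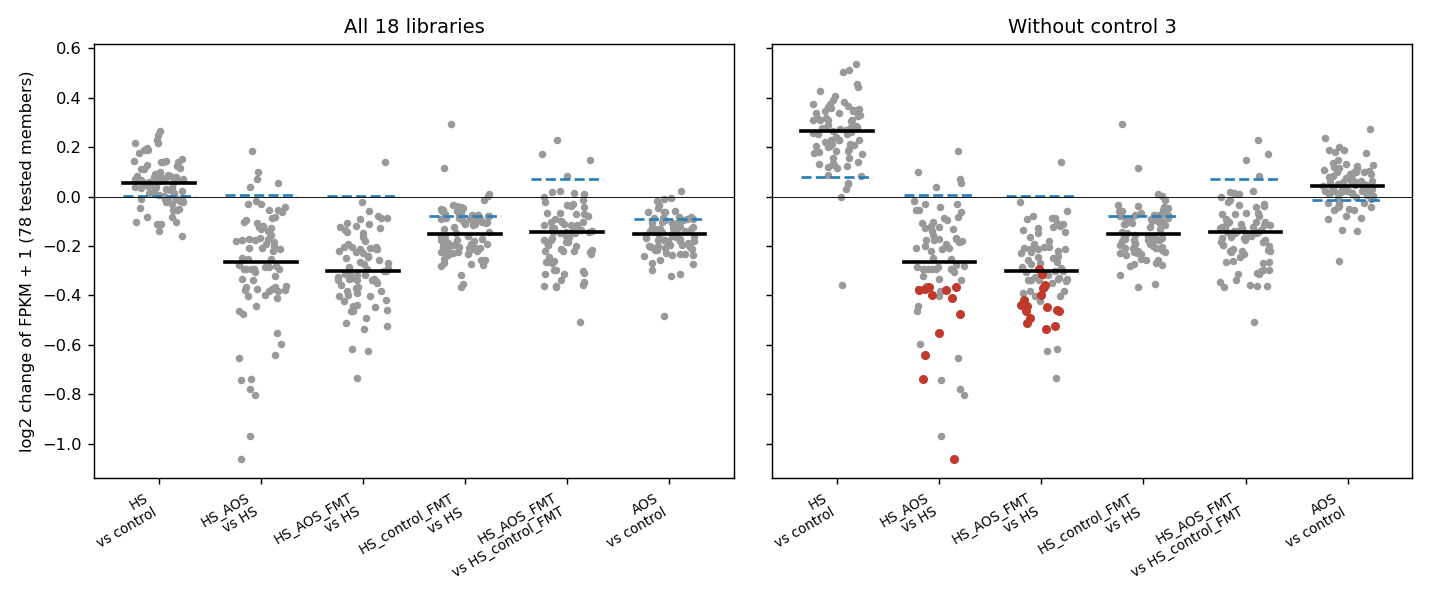
log2 change of FPKM + 1 of the 78 tested members in 6 comparisons, with all 18 libraries (left) and without control 3 (right). Points are members, red where limma's adjusted p was under 0.05, black lines are member medians and dashed blue lines the medians of all tested genes. Red points appear on the right in HS_AOS vs HS (12) and HS_AOS_FMT vs HS (16) and nowhere on the left.

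HS_control_FMT against HS, with the transfer labelled control and again the same HS libraries, called 0 of 78 tested members, where 0.751% of all tested genes were called, and no member had an unadjusted p under 0.05, against 15.2% of all genes. The median was -0.15 and that of all genes -0.08. Of the members 74 were lower, against 65.6% of all genes. Rpl36 (-0.37 ± 0.27 SE), Rpl11 (-0.35 ± 0.19) and Rpl36a (-0.32 ± 0.21) were lowest, and Rpl3l (0.29 ± 0.25), Rpl34 (0.12 ± 0.16) and Rpl7 (0.01 ± 0.11) highest. The row of Rpl34 is uncertain because of its near-identical copy. The values of 22 members did not overlap and were lower, against 18.8% of all genes, and Rpl11, the partner of Rpl5, was 1 of them. Array weights called Rpl27 and Rpl13a lower, against 7.33% of all genes. All 5 erythroid markers (median -0.92) and all 5 adrenal markers (median -1.86) were lower and none was called, and their part in the members' values was not tested. The adrenal sum was high in HS 3 alone of the HS libraries, at 239 FPKM beside 1.36 and 1.22 in HS 1 and HS 2.

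HS_AOS_FMT against HS_control_FMT compares the transfers directly and shares no library with HS. It called 0 of 78 tested members, where 3.99% of all tested genes were called, and 5 had an unadjusted p under 0.05, against 19.8% of all genes, among them Rpl10a, Rpl34, Rplp2 and Rpl18. The rows of Rpl34 and of Rpl29, which is named below, are uncertain because of their near-identical copies. The median was -0.14 while that of all genes was 0.07, and 70 members were lower, against 36.5% of all genes. Values did not overlap and were lower in 17 members, against 7.56% of all genes, and were higher in Rpl3 alone, against 21.8%. Array weights called 19 members lower, against 6.06% of all genes. Rpl10a, a protein of the L1 stalk, was at 295 ± 9.78 FPKM (SD, n = 3) against 345 ± 26.5 (log2 -0.22, adjusted p = 0.202 by limma). The lowest values were those of Rpl3l (-0.51 ± 0.25 SE), Rpl36 (-0.37 ± 0.27) and Rps28 (-0.36 ± 0.39), and the highest those of Rpl29 (0.23 ± 0.18), Rpl3 (0.17 ± 0.14) and Rpl39 (0.15 ± 0.17). Rpl3 was at 237, 240 and 212 FPKM in HS_control_FMT and lay below all 3 HS_AOS_FMT values. HS_AOS_FMT 2 and 3 carry adrenal markers and HS_control_FMT does not. Without the 3 most adrenal-rich libraries the median was -0.14 and none was called.

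AOS against control, in mice without the diet and STZ, called 0 of 78 tested members, where 0.0646% of all tested genes were called, and none had an unadjusted p under 0.05, against 7.28% of all genes. Of the members 77 were lower, against 73.4% of all genes, with a median of -0.15 (all genes -0.09). Rpl36 was lowest (-0.48 ± 0.27 SE), at 182, 300 and 291 FPKM in AOS, followed by Rplp1 (-0.32 ± 0.17) and Rpl36a (-0.31), and Rpl27 (0.02 ± 0.15) and Rps28 (-0.00) were highest. Only Rpl10a had values that did not overlap and were lower, against 10.1% of all genes. Without control 3 the direction of the median turned: 59 members were higher, the median was 0.04 and that of all genes -0.01. The difference between the AOS effect under HS and without it was tested as an interaction. It called 0 of the 78 members, against 0.0727% of all tested genes, and 1 had an unadjusted p under 0.05, against 15% of all genes, with a median of -0.10 (all genes 0.10). The interaction was fitted with control 3 included and not without it. It therefore does not show that the AOS effect is alike with and without the diet and STZ.

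Other parts of the translation machinery were read in the same fit. The ribosomal proteins outside the pattern, 7 rows that include Fau, Rps3a1, Rpl36al, Rpl22l1, Rpl7l1 and Rack1, had no call in any comparison, and medians of -0.08 in HS_AOS and -0.16 in HS_AOS_FMT against HS. Fau, which encodes eS30 fused to a ubiquitin-like protein, was at 804, 743 and 787 FPKM in HS, 669, 561 and 495 in HS_AOS and 596, 522 and 523 in HS_AOS_FMT, without overlap with HS. It was ordered like most members. With control 3 left out of the fit, 1 of these 7 rows was called lower in HS_AOS and 2 in HS_AOS_FMT against HS. Of all genes 3.19% and 2.54% were.

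The medians of other messenger RNAs known for a TOP tract were small in HS_AOS and HS_AOS_FMT against HS. The 20 tested genes of this kind, which include the elongation factors Eef1a1 and Eef2 and the tumor protein Tpt1, had no call in any comparison, and medians of 0.04 in HS_AOS and 0.02 in HS_AOS_FMT against HS. Eef1a1, which delivers transfer RNA to the ribosome, was at 2515, 2289 and 2296 FPKM in HS, 2557, 2723 and 2512 in HS_AOS and 2617, 2553 and 2467 in HS_AOS_FMT. The 25 genes of mTORC1 and TOP control had no call and medians of 0.06 and 0.08 in the same comparisons. With control 3 left out of the fit, 1 of the 20 genes was called higher in HS_AOS against HS. Of the 25 genes, 1 was called higher in HS_AOS and 2 in HS_AOS_FMT against HS. Of all 12289 genes, 436 and 307 were called higher there. Between the transfers 1 of the 20 and 2 of the 25 were called higher, and 905 of all genes. No test of the difference between these lists and the members was made, and the lists were not matched to the members in transcript length.

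The mitochondrial ribosomal proteins, which belong to the separate ribosome of that organelle, had medians of -0.15 in HS_AOS and -0.16 in HS_AOS_FMT against HS over 78 tested genes. In HS_AOS against HS 5 of them fell, where 1.20% of all tested genes were called lower: Mrpl54 (log2 -0.79, adjusted p = 0.0145), Mrps7 (-0.42), Mrpl28 (-0.34), Mrps26 (-0.34) and Mrpl52 (-0.57). Mrps26 also fell in HS_control_FMT against HS (-0.36, adjusted p = 0.0491), and Mrps12 was lower in HS_AOS_FMT than in HS_control_FMT (-0.52, adjusted p = 0.0325). Of 75 nuclear subunits of the respiratory chain 6 fell in HS_AOS against HS, among them Ndufa2 of complex I (-0.68) and Uqcr10 of complex III (-0.61), with a list median of -0.20. In HS_AOS_FMT against HS neither list had a call, where 0.533% of all genes were called lower. With control 3 left out of the fit, 11 mitochondrial ribosomal proteins and 11 respiratory chain subunits were called lower in HS_AOS against HS, and 15 and 18 in HS_AOS_FMT against HS, where 3.19% and 2.54% of all genes were. Of 51 ribosome biogenesis genes, Nop10 of the box H/ACA particle fell in HS_AOS against HS (log2 -0.39, adjusted p = 0.0279), and the list median was -0.10. Of 35 initiation factors, Eif3g fell in HS_AOS (-0.46) and Eif2b4 in HS_AOS_FMT (-0.34) against HS. Eif1a rose in HS_control_FMT against HS (0.66) and was lower in HS_AOS_FMT than in HS_control_FMT (-0.69). Of all 12385 tested genes, 57 were called higher and 36 lower in HS_control_FMT against HS. Between the transfers 135 were called lower. Single calls of this kind are not a result about a list. With control 3 left out, 2 biogenesis genes and 4 initiation factors were called lower in HS_AOS, and 3 and 4 in HS_AOS_FMT, against HS. Of all genes 3.19% and 2.54% were.

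Short transcripts outside the family were offset too. The 662 other tested genes with a GENCODE transcript of at most 1000 bases had a median of -0.24 in HS_AOS against HS, with 528 lower and 29 called lower, and a median of -0.24 in HS_AOS_FMT against HS, with 547 lower and 12 called lower. Of all tested genes 1.20% and 0.533% were called lower there. With control 3 left out of the fit 78 of these short genes were called lower in each comparison, where 3.19% and 2.54% of all genes were. The 44 tested members of that length had medians of -0.29 and -0.31, and the 34 longer ones -0.24 and -0.27. In HS_control_FMT against HS the short genes outside the family had a median of -0.15, and the members -0.15. Between the transfers these short genes had a median of -0.09, with 443 lower, beside -0.14 for the members. In HS against control without control 3 the medians were 0.17 for the short genes and 0.27 for the members. The part of transcript length in the members' values was not tested beyond the trend removal given above.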

How the data were processed

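Values are FPKM per gene symbol and library, which the authors computed and deposited with 2 decimals. The unit was read from the values: library sums weighted by transcript length varied by 0.863% (coefficient of variation), plain sums by 4.29%. Per the submitters' processing notes, Bowtie 0.12.2 and mm10 were used. For the counting program, annotation and strandedness, the sources used here give nothing. The table holds no counts, so depth is unknown and no count test or interval was possible; 15773 to 17270 rows lay above 0 in a library.

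Genes with at least 1 FPKM in 3 of 18 libraries (12385) were fitted as log2(FPKM + 1), which understates changes of low genes, with 1 mean per group, in R 4.3.3 with limma 3.58.1 (options trend and robust). P-values are limma's, adjusted over all tested genes by the method of Benjamini and Hochberg at 0.05. The fit was tested on simulated data. The members and lists were chosen with earlier results of these data known. Named genes were, per comparison, called members by p, the 3 largest and 3 smallest changes, the 5 highest and lowest members, the stalk proteins and paralogs, and up to 4 called genes per other list. Other members named (Rps2, Rps14, Rps20, Rps29 and the like) have the smallest p without a call, or the largest deviations in 1 library, and were chosen after their values were seen. Deviations of same-numbered libraries had correlations across genes of 0.12 to 0.24 in HS and control, and of -0.23 to 0.31 in the other comparisons. Alternatives were another pseudocount, filter and normalization, the family mean subtracted, the GC and length trend removed, no trend option, array weights, a replicate block, the compared groups alone and libraries left out. Coordinates are GENCODE M21 and RefSeq, both GRCm38. A few genes that the rule would name are not reported here.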

Additional observations from a re-analysis of the deposited data

How the results depend on the processing

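The count of members called was 0 in each of the 6 comparisons and moved as follows. With no filter, 1 member (Rpl10l) was lower in HS and in AOS against control. Of the 18883 genes fitted then, 233 and 226 were called lower. In HS_AOS against HS the count was 1 with a pseudocount of 0.1, 1 at a minimum of 5 FPKM, 1 with quantile normalization, 7 with the family mean subtracted, 12 with control 3 left out of the fit and 0 to 12 with a compared library left out, 12 without HS_AOS 1 and 1 without HS 1. Of all genes in that comparison, 139 were called higher and 155 lower of 12385 with that pseudocount, and 182 and 199 of 8852 at 5 FPKM. With quantile normalization 279 and 198 of 12385 were called, and without HS 1 258 and 283 of 12352. In HS_AOS_FMT against HS the count of members was 1 with the family mean subtracted, 3 with the groups alone and 16 with control 3 left out. With a compared library left out it was 0. With the GC and length trend removed the count was 1 (Rpl18) in HS_AOS_FMT against HS_control_FMT. There 237 of 12254 genes were called higher and 215 lower. Array weights gave HS_AOS 2 a weight of 5.80, HS_AOS 1 and 3 weights of 0.366 and 0.407, and control 3 one of 0.111. HS_control_FMT 1 had 3.85, and HS_control_FMT 2 and 3 had 0.811 and 0.370. With these weights 3 members were called in HS against control and 19 between the transfers. Against HS, 49 were called in HS_AOS, 38 in HS_AOS_FMT and 2 in HS_control_FMT. The cause was not tested. The replicate block left the count at 0 in all 6 comparisons.

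The log2 share ratio of HS_AOS_FMT to HS was -0.24, and -0.29 on FPKM times length. With a compared library left out, share ratios ranged from -0.14 to 0.31 in HS against control, -0.29 to -0.07 in HS_AOS, -0.27 to -0.21 in HS_AOS_FMT and -0.19 to -0.05 in HS_control_FMT against HS, -0.19 to -0.05 between the transfers and -0.42 to 0.03 in AOS against control.

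Among members named for large or small changes, signs turned as follows. In AOS against control, Rps28 was 0.048, 0.15, 0.21, 0.23 and 0.27, with quantile normalization, the family mean subtracted, the GC and length trend removed, array weights and the 3 adrenal-rich libraries (control 3, HS 3 and HS_AOS_FMT 2) left out, and Rpl36a 0.032 and 0.019 with the last pair. In HS against control that pair gave Rps4x 0.051 and 0.085, and Rpl3 0.065 and 0.13. In HS_AOS_FMT against HS, Rpl7 was 0.13 with quantile normalization and 0.23 with the family mean subtracted, and Rpl29 0.27 with the latter, 0.30 with the trend removed and 0.0074 with array weights. Rpl5 in HS_AOS was -0.0027 with the trend removed and Rpl7 in HS_control_FMT -0.0018 with array weights. With a library left out, ranges were -0.52 to 0.019 (Rpl36a), -0.16 to 0.27 (Rps28) and -0.074 to 0.20 (Rpl27) in AOS against control, -0.36 to 0.044 (Rpl3l, the latter without control 1), -0.25 to 0.083 (Rps4x) and -0.22 to 0.12 (Rpl3) in HS against control, -0.0017 to 0.16 (Rpl5 in HS_AOS), -0.095 to 0.056 (Rpl29 in HS_AOS_FMT), and -0.076 to 0.085 (Rpl7) and -0.10 (without HS 1) to 0.25 (Rpl34) in HS_control_FMT.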
